A study of Mus musculus with 3 samples.

Results

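The genes of glycolysis, the pentose phosphate pathway and pyruvate use were compared between blastocysts of the inbred mouse strains NOD and B6. The group holds 36 genes, chosen by symbol as a list of sugar and monocarboxylate transporters, glycolytic enzymes, lactate dehydrogenases, enzymes that bring pyruvate into mitochondria and enzymes of the pentose phosphate pathway, out of 24063 genes in the count table, and all 36 were found there. NOD (non-obese diabetic) mice develop autoimmune diabetes spontaneously, and C57BL/6 (B6) mice do not. Low-input RNA-Seq was run on 1 library of B6 blastocyst (B6 1) and 2 libraries of NOD blastocyst (NOD 1 and NOD 2), none of them treated and none of them carrying an engineered allele according to the labels, which give neither the sex nor the exact age of the embryos. The labels give the whole blastocyst as the input, whereas the methods describe inner cell masses freed of trophectoderm by immunosurgery, so values are reported for the blastocyst without assigning them to either lineage.

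Glycolysis splits glucose into pyruvate in the cytosol, and the steps catalysed by hexokinase, phosphofructokinase and pyruvate kinase are its main points of control. Pyruvate is either reduced to lactate by lactate dehydrogenase or carried into the mitochondrion, where the pyruvate dehydrogenase complex turns it into acetyl-CoA and kinases switch that complex off by phosphorylation. The pentose phosphate pathway branches off at glucose phosphate and makes NADPH and ribose for nucleotides. The early mouse embryo lives mainly on pyruvate and takes up glucose strongly only around the blastocyst stage.

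Counts on genes summed to 12505685 in B6 against 33891715 (NOD 1) and 36171013 (NOD 2), so the B6 library sets the precision, and a gene without counts there may still lie at up to 0.220 CPM (CPM, counts relative to library size on the scale of edgeR's TMM factors; the limit is 3 counts). Such limits, and the intervals given with ratios and shares, cover counting error only. The input was checked by its markers. Of the 10 inner cell mass and epiblast markers, all tested, 7 were higher in both NOD libraries than in B6 (against 45.3% of all genes tested), and their summed level was 1320 CPM in B6 against 3039 and 3961 in NOD, most of it from Dppa5a (849, 2251 and 2966 CPM). Sox2 was down-regulated (49.8, 5.75 and 9.61 CPM), and Klf2 and Esrrb were also lower in both. Of the 8 primitive endoderm markers, Gata6 was down-regulated (385, 91.5 and 129.9 CPM) and Pdgfra up-regulated (5.50, 23.6 and 24.6 CPM). Of 10 trophectoderm markers, 9 were tested, 6 of these were lower in both NOD libraries (against 39.4% of all genes tested), and the sum was 3253 CPM in B6 against 2389 and 2017 in NOD, with Cdx2 at 84.2, 66.9 and 53.8 CPM and Elf5 at 0, 7 and 10 counts. Ptprc and Lyz2 had 0 counts in every library, and the sums of the leukocyte, cumulus cell and red blood cell markers stayed between 0.147 and 1.70 CPM in every library. These lineage markers moved along with the strains beside every difference described here, and their part in those differences was not tested.

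Read per kilobase of transcript (FPKM, the TMM-scaled CPM divided by the listed transcript length), the 36 genes covered a wide range within each library. Aldoa, the aldolase that splits fructose bisphosphate into triose phosphates, was the highest in all 3 libraries, with 589 FPKM in B6 against 645 (NOD 1) and 849 (NOD 2), and it made up 28.4%, 30.7% and 34.7% of the summed FPKM of the group. In B6 it was followed by Taldo1 and Mpc2, in NOD 1 by Mpc2, Taldo1 and Pdhb, and in NOD 2 by Taldo1, Pdhb and Mpc2. The summed CPM of the 36 genes was 3961 in B6 against 3816 (NOD 1) and 4460 (NOD 2). By the listed roles, the summed CPM of the hexose phosphate steps was lower in NOD (482 in B6 against 239 and 194), as was that of the pentose phosphate genes (782 against 494 and 565), and that of the genes for pyruvate entry into mitochondria was higher (542 against 945 and 1150). These sums are descriptions and were not tested.

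**Figure D1:**
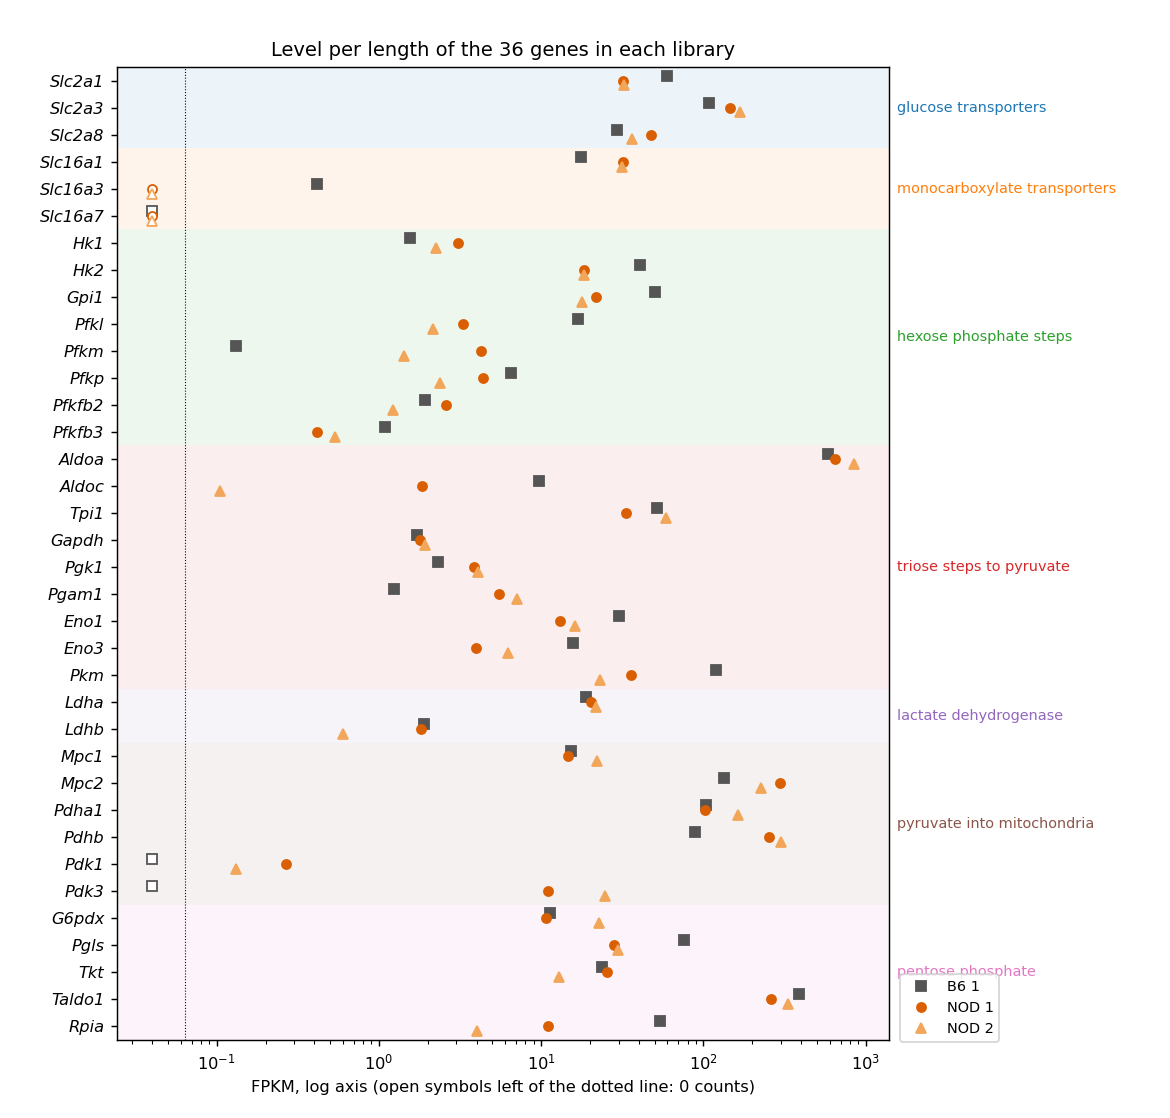
Level of each of the 36 genes in FPKM on a log axis, grouped by role, with a square for B6 1, a circle for NOD 1 and a triangle for NOD 2; open symbols left of the dotted line are libraries with 0 counts. Aldoa lies at 589 to 849 FPKM, Pdk3 has 0 counts in B6 and 11.1 and 24.9 FPKM in NOD, and the NOD symbols of Hk2, Gpi1, Pfkl, Pkm and Rpia lie left of the B6 square.

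The strains were compared with the quasi-likelihood test of edgeR over 14456 genes, and the calls (up- or down-regulated in NOD) required a Benjamini-Hochberg adjusted p under 0.05 together with a 2-fold or larger difference. Of the 36 genes 34 passed the filter on low counts. Pdhb and Pdk3, which serve the pyruvate dehydrogenase complex, were up-regulated in NOD, and Hk2, Gpi1, Pfkl, Pkm and Rpia, of which 4 belong to glycolysis, were down-regulated. This is 5.88% of the 34 genes up against 10.3% of all genes tested, and 14.7% down against 7.39% of all genes tested. The other 27 genes did not pass. In B6 each of the 7 called genes lay outside the range of the NOD libraries, which nearly follows from a call and held for most genes tested. Moreover, 1 B6 library gives no spread of its own, and the smallest p of an exact permutation test of 1 library against 2 is 0.33. An unadjusted p under 0.05 was found for 16 of the 34 (47.1%) and for 39.9% of all genes tested. Across 9 alternative analyses all 7 genes kept their direction, but all 7 calls were lost with limma-voom and when genes with low counts were kept, those of Hk2, Gpi1 and Rpia also with upper-quartile factors, and that of Rpia also with scaling by total counts. Without regard to the test, 14 genes (41.2%) were higher in both NOD libraries, against 45.3% of all genes tested, 14 (41.2%) were lower in both, against 39.4%, and 6 lay on either side of B6. The median log2 fold change (NOD minus B6) of the 34 genes was 0.05, and that of all genes tested was 0.26. The former was 0.05 also with Pdk1 and Pdk3, which had 0 counts in B6, set at the lower bound that this count allows. Between the NOD libraries, 26 of the 34 genes differed by less than 2-fold and 8 by more.

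**Figure D2:**
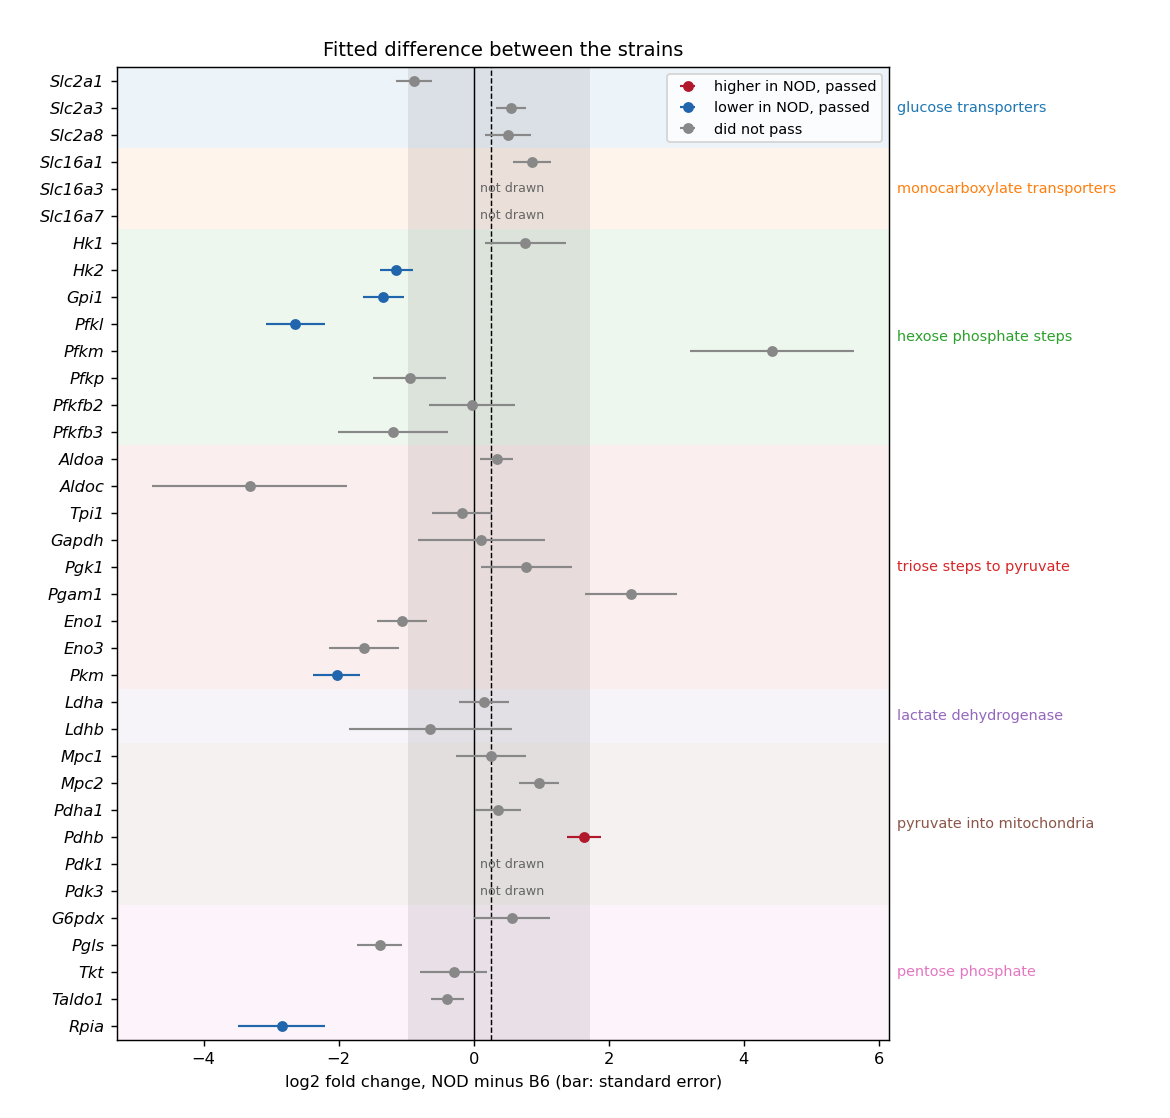
Fitted log2 fold change (NOD minus B6) of each gene with its standard error, in red where NOD was higher and in blue where NOD was lower past the threshold. The dashed line is the median of all genes tested (0.26) and the grey band holds the middle of their distribution from the lower to the upper quartile; Pdk1 and Pdk3, with 0 counts in B6, and the untested Slc16a3 and Slc16a7 are not drawn. The 5 blue points lie between -2.85 (Rpia) and -1.15 (Hk2), and the red point is Pdhb at 1.64.

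No transporter passed the test. Slc2a3 (GLUT3, chr6:122727809-122742745 in mm10), the high-affinity glucose carrier of the early embryo, had the highest level per length of the glucose transporters, at 108 FPKM in B6 against 145 (NOD 1) and 169 (NOD 2). Its log2 fold change was 0.55 (standard error, SE, 0.22, adjusted p = 0.141 from edgeR). Slc2a1 (GLUT1), the basal glucose carrier, pointed the other way, with 59.3 FPKM in B6 against 31.9 and 32.5 in NOD. The NOD libraries lay close together and below B6, and the log2 fold change was -0.88 (SE 0.27, adjusted p = 0.0807). Slc2a8 (GLUT8), found on intracellular membranes, had 29.4, 47.3 and 36.5 FPKM. Within the summed FPKM of these 3 carriers, the share of Slc2a1 was 30.2% in B6 and 13.9% ± 0.37 in NOD (SD, n = 2), and that of Slc2a3 was 54.8% in B6 and 67.9% ± 4.44 in NOD.

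Among the carriers of lactate and pyruvate, Slc16a1 (MCT1) was nearly alone. It had 1056 counts in B6 against 4691 (NOD 1) and 4766 (NOD 2), or 17.5, 32.1 and 31.7 FPKM, and a log2 fold change of 0.86 (SE 0.28, adjusted p = 0.0894 from edgeR). Slc16a3 (MCT4), the lactate exporter of strongly glycolytic cells, had 14 counts in B6 and 0 in each NOD library, which makes it at least 11.3-fold higher in B6 against the limit of 3 counts in NOD 1, and it was too low to be tested. Slc16a7 (MCT2) had 0 counts in all 3 libraries, which allows up to 0.220 CPM in B6 against 0.0908 (NOD 1) and 0.0882 (NOD 2).

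Of the 8 genes of the hexose phosphate steps, the first steps of glycolysis, 3 were down-regulated in NOD (against 7.39% of all genes tested) and 0 up-regulated, with a median log2 fold change of -1.05 against 0.26 over all genes tested. With upper-quartile factors only Pfkl of the 3 remained called. These 3 stand in sequence, from the trapping of glucose to the phosphofructokinase step. Hk2 (chr6:82725027-82774454, minus strand), the inducible hexokinase that traps glucose in the cell, had 3040 counts in B6 against 3349 (NOD 1) and 3412 (NOD 2). Scaled for depth this is 223 CPM in B6, against 101 ± 0.75 for NOD (SD, n = 2), with the NOD libraries nearly equal. Its log2 fold change was -1.15 (SE 0.24, adjusted p = 0.0427 from edgeR). Gpi1 (chr7:34201327-34230336, minus strand), which turns glucose phosphate into fructose phosphate, had 1958, 2068 and 1741 counts, or 144 CPM in B6 against 62.6 and 51.2 in NOD. Both NOD libraries lay below B6, by a log2 fold change of -1.34 (SE 0.30, adjusted p = 0.0468). Of the 50-base words of its transcript, 25.3% also occur in transcripts of other genes, and 12.3% of its exon bases overlap Gm26762, which is transcribed from the opposite strand, so that reads of the latter could be counted for Gpi1.

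Pfkl (chr10:77986949-78009796, minus strand), the liver-type phosphofructokinase, showed the largest fall within these steps. It had 850 counts in B6 against 400 and 269 in the deeper NOD libraries, or 62.4 CPM in B6 and 12.1 and 7.91 in NOD. The B6 library lay 6.24-fold above the NOD mean, with a log2 fold change of -2.64 (SE 0.44, adjusted p = 0.0290 from edgeR). The muscle-type isozyme Pfkm (chr15:98092589-98132447) showed the opposite order, with 5 counts in B6 against 395 (NOD 1) and 135 (NOD 2). The pooled NOD counts over those of B6 gave a ratio of 21.5 (exact 95% interval 9.17 to 66.6), but the NOD libraries themselves differed 3.01-fold and the test did not pass (log2 fold change 4.42, SE 1.21, adjusted p = 0.0666). The platelet-type isozyme Pfkp had 357, 584 and 324 counts, or 26.2, 17.7 and 9.52 CPM, and a log2 fold change of -0.95 (adjusted p = 0.251), with 18.05% of its exon bases overlapping the antisense gene Pitrm1.

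The makeup of the phosphofructokinase family therefore differed between the libraries. Per length, Pfkl made up 71.7% of the family in B6 against 27.4% (NOD 1) and 36.1% (NOD 2). Pfkm was 0.558% of the family in B6 and 35.8% and 23.9% in NOD, and Pfkp was 27.7% in B6 and 36.8% and 40.0% in NOD. The B6 library thus held mostly Pfkl, while no isozyme held more than 40.0% in the NOD libraries. The share of Pfkl differed by -39.98 percentage points (NOD minus B6), against an SD of 6.13 points between the NOD libraries. The summed FPKM of the family was 23.6 in B6 against 11.97 (NOD 1) and 5.94 (NOD 2). These shares are given as descriptions and were not tested.

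Hk1, the hexokinase of most adult tissues, had 88, 418 and 318 counts and stayed the minor form at 3.70% of the hexokinase FPKM in B6 (exact 95% interval 2.98 to 4.53), 14.2% in NOD 1 (12.99 to 15.5) and 11.01% in NOD 2 (9.90 to 12.2). Its own difference did not pass the test (log2 fold change 0.77, SE 0.60, adjusted p = 0.377). Pfkfb2 and Pfkfb3 encode bifunctional enzymes that set the level of the fructose bisphosphate isomer that activates phosphofructokinase. Pfkfb2 had 1.93, 2.58 and 1.23 FPKM and Pfkfb3 had 1.10, 0.416 and 0.538 FPKM, with adjusted p values of 0.982 and 0.318. The share of Pfkfb2 in this pair was 63.8% in B6 against 86.1% (NOD 1) and 69.5% (NOD 2). The NOD libraries thus differed more from each other than NOD 2 differed from B6. Pfkfb1 and Pfkfb4, bifunctional enzymes of the wider list picked with their levels already known, lay above this pair in every library. Pfkfb1 had 27.2 FPKM in B6 against 13.9 (NOD 1) and 16.5 (NOD 2), and Pfkfb4 had 4.52, 2.88 and 1.46. Both were lower in both NOD libraries without passing the test (adjusted p = 0.161 and 0.273 from edgeR). The shares given here therefore describe the minor forms only.

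The stretch of 250 bases before the RefSeq start of transcription is shown for the called genes of these steps and for both up-regulated genes, because they moved in opposite directions. The sequences are from RefSeq (GRCm38.p6, the assembly of mm10), written along the coding strand, and capitals mark the letters ACGTG or GCGTG, the core of the site bound by hypoxia-inducible factors, on either strand (CACGT and CACGC).
Hk2, chr6:82774455-82774704, minus strand: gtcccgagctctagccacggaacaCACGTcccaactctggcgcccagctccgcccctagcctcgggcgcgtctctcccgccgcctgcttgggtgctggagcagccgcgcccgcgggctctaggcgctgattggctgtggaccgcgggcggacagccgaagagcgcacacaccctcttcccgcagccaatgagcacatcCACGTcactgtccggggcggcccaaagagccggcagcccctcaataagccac
Gpi1, chr7:34230337-34230586, minus strand: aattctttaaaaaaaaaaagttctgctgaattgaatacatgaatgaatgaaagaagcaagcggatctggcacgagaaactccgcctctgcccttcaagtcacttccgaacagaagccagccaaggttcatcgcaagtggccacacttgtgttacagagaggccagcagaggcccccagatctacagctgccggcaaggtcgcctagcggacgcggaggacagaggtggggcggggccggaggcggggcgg
Pfkl, chr10:78009808-78010057, minus strand: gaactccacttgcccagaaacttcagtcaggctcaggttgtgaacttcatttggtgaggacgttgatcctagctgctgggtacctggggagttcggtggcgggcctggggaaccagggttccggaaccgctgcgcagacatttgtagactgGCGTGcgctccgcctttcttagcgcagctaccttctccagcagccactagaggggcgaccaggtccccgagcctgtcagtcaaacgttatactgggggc
Pdhb, chr14:8172993-8173242, minus strand: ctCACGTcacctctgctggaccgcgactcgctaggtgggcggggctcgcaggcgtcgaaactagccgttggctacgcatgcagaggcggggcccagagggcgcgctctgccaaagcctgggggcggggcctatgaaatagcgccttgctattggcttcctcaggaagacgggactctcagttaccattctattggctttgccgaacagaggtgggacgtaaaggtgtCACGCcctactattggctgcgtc
Pdk3, chrX:93832151-93832400, minus strand: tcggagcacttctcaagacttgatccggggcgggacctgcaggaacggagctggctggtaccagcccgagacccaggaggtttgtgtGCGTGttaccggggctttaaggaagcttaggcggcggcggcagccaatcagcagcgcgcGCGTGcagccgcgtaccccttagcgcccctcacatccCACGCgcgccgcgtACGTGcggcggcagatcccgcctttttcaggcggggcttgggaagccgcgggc
The core was found at 2 places before Hk2, 1 before Pfkl, 2 before Pdhb and 4 before Pdk3, and at 0 before Gpi1. RefSeq windows were at hand for 34 of the 36 genes, not for Slc2a3 and Slc16a7, and 32 of the 34 genes (94.1%) held the core in at least 1 window, against 41.5% of 27025 gene symbols. The exceptions were Gpi1 and Tpi1. The E-box CACGTG, which holds the core on both strands and counts as 2 matches of it, was found for 5 of the 34 genes (14.7%) against 6.86% of all symbols. Some genes have several starts, and these 34 genes have 50 windows in all, against 32851 windows for the 27025 symbols. The symbols were not limited to the genes tested here and were not matched in base composition, although the core holds a CG. The shares are therefore not compared like for like, and no enrichment was tested. The core lay before genes that were up-regulated, down-regulated and not called, and a match is a description of the letters, not of binding.

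Of the 9 genes of the triose steps, 1 was down-regulated (against 7.39% of all genes tested) and 0 were up-regulated. Pkm (chr9:59656368-59679375, plus strand), the pyruvate kinase that makes pyruvate and ATP at the end of glycolysis, had 3958 counts in B6 against 2863 (NOD 1) and 1888 (NOD 2). The level was 290 CPM in B6 against 86.6 and 55.5 in NOD, and B6 lay 4.09-fold above the NOD mean. The log2 fold change was -2.03 (SE 0.34, adjusted p = 0.0298 from edgeR). The counts are per gene, so the muscle and embryonic splice forms of Pkm were not told apart. Aldoa showed 929, 1016 and 1338 CPM, with the B6 library below NOD by less than the distance between the NOD libraries (log2 fold change 0.34, SE 0.24, adjusted p = 0.337).

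The other triose genes did not pass and did not share a direction. Eno1, the general enolase, had 30.4 FPKM in B6 against 13.1 and 16.1 in NOD (log2 fold change -1.06, adjusted p = 0.106 from edgeR), and Eno3, the muscle enolase, had 15.8 against 3.97 and 6.24 (log2 fold change -1.63, adjusted p = 0.0898). The share of Eno1 in the enolase pair was 65.8% in B6 (exact 95% interval 62.8 to 68.7) and 76.7% and 72.1% in NOD. Pgam1, a phosphoglycerate mutase, was higher in both NOD libraries with 31, 331 and 441 counts (log2 fold change 2.33, adjusted p = 0.0752). Aldoc, the brain-type aldolase, had 224 counts in B6 against 103 (NOD 1) and 6 (NOD 2), a 17.7-fold difference between the NOD libraries in CPM, and its log2 fold change of -3.32 carried a SE of 1.45 (adjusted p = 0.160). Aldoa made up 98.4% of the aldolase pair in B6 and 99.7% and nearly all of it in NOD. Tpi1, the triose phosphate isomerase, had 52.0, 33.4 and 58.9 FPKM, with B6 inside the range of NOD. Pgk1, an X-linked kinase that makes ATP, had 2.31, 3.87 and 4.07 FPKM, and Gapdh had 33, 84 and 92 counts, or 1.71, 1.80 and 1.91 FPKM.

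Gapdh, Pgk1 and Pgam1 were thus low beside their neighbours in the pathway, Aldoa at 589 to 849 FPKM and Tpi1 at 33.4 to 58.9. The mutase step as a whole was not low. Pgam2, the other phosphoglycerate mutase, is on the wider list and was named after its values were seen. It had 40.7 FPKM in B6 against 54.8 (NOD 1) and 93.5 (NOD 2) (adjusted p = 0.229 from edgeR). Gapdh, Pgk1 and Pgam1 share much of their sequence with pseudogenes. Of the 50-base words of the Gapdh transcript, as long as the reads, 82.5% also occur in transcripts of 222 other genes in GENCODE M21, 213 of them pseudogenes. The share was 72.2% for Eno1 (9 other genes), 68.0% for Pgk1 (5), 44.2% for Mpc1 (3), 41.5% for Pgam1 (4), 40.9% for Pfkfb2 (1) and 39.3% for Pkm (8). No pseudogene shares words with Pfkfb2, of whose exon bases 43.6% overlap Gm29427 on the same strand. Of the exon bases of Mpc1, 27.9% overlap the antisense gene 4930506C21Rik. The share was 0 for 16 of the 36 genes, among them Hk2, Pdk3 and Rpia, and 0.0543% for Pfkl. Thus 4 of the 7 called genes shared under 1% of their words. The treatment of reads with several alignments is not given in the sources used here, and the part of shared sequence in the low levels was not tested. The words were counted in the reference sequence of B6 origin, and whether reads of NOD are placed alike was not tested.

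The words below, from the coding parts of 4 of these genes in mm10 (exon numbers of the GENCODE transcript), are shown because a read of each would match several genes equally well. They are set in lower case throughout, since the whole word recurs.
Gapdh, chr6:125162898-125162947, minus strand, exon 4: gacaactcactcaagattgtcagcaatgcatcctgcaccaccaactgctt
Pgam1, chr19:41916679-41916728, plus strand, exon 3: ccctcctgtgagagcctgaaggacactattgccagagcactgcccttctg
Eno1, chr4:150245115-150245164, plus strand, exon 7: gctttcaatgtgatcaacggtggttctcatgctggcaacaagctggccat
Pkm, chr9:59669002-59669051, plus strand, exon 5: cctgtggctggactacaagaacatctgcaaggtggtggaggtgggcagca
The word of Gapdh occurs in transcripts of 84 other genes, 80 of them pseudogenes. That of Pgam1 occurs in 3 others and that of Pkm in 4, all of them pseudogenes. That of Eno1 occurs in 5 others, of which 4 are pseudogenes.

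**Figure D3:**
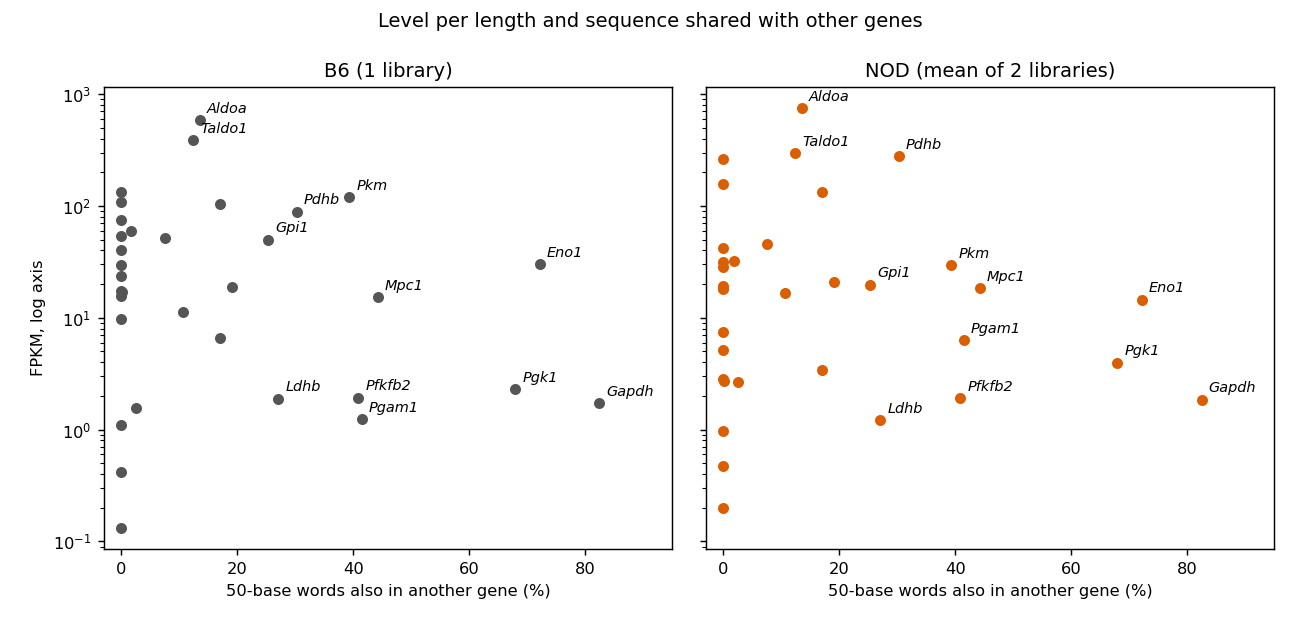
Level per length in FPKM (log axis) against the share of a gene's 50-base words that also occur in transcripts of another gene, for B6 (1 library) and for the mean of the NOD libraries; each point is a gene with a level above 0. Gapdh, at 82.5% of words shared, lies at 1.71 FPKM in B6 and 1.86 in NOD, and Aldoa, at 13.5%, lies at 589 and 747.

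Neither lactate dehydrogenase gene passed the test, and the summed FPKM of the pair was 20.9 in B6 against 22.1 (NOD 1) and 22.5 (NOD 2). Ldha, the form that favours lactate, had 417, 1083 and 1201 counts, or 18.97 FPKM in B6 against 20.3 (NOD 1) and 21.9 (NOD 2). The fitted difference was smaller than its error (log2 fold change 0.15, SE 0.37, adjusted p = 0.773 from edgeR). Ldhb, the form that favours pyruvate, had 33, 77 and 26 counts, or 1.89, 1.82 and 0.597 FPKM, with B6 close to NOD 1 and 3.17-fold above NOD 2. Ldha made up 90.9% of the pair in B6 (exact 95% interval 87.5 to 93.7), 91.8% in NOD 1 (89.9 to 93.4) and 97.3% in NOD 2 (96.1 to 98.3), so that NOD 1 overlapped B6.

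**Figure D4:**
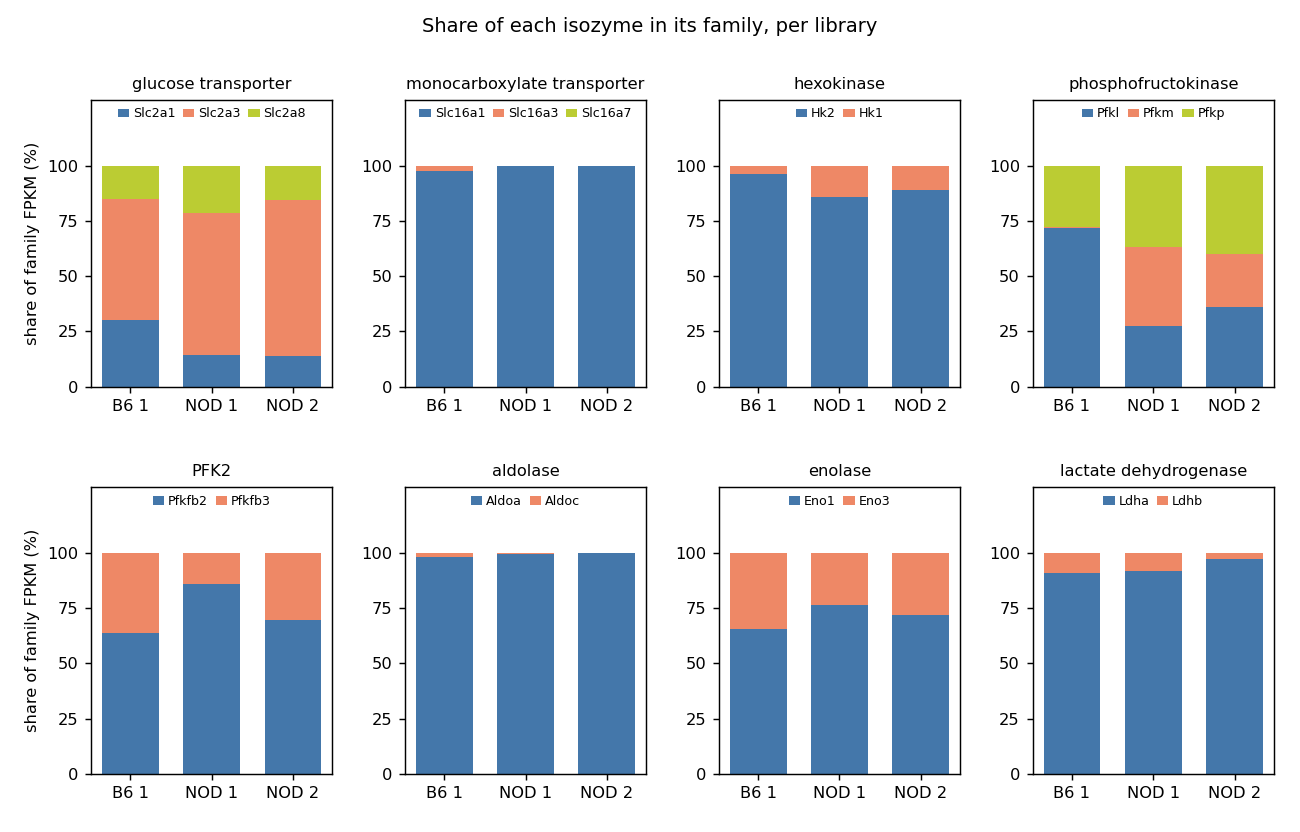
Share of each isozyme in the summed FPKM of the genes of its family that are among the 36 (per cent, stacked to 100) in B6 1, NOD 1 and NOD 2. Other family genes, such as Pfkfb1, Eno2 and Eno1b, are not included. In the phosphofructokinase panel Pfkl fills 71.7% of the B6 bar and 27.4% and 36.1% of the NOD bars. Among the genes drawn, the leading hexokinase, aldolase, enolase and lactate dehydrogenase gene is the same in every library.

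Of the 6 genes of pyruvate entry into the mitochondrion, which hold 2 carrier subunits, 2 subunits of pyruvate dehydrogenase and the kinases Pdk1 and Pdk3 that switch it off, 2 were up-regulated (against 10.3% of all genes tested) and 0 down-regulated, with a median log2 fold change of 1.30 (also 1.30 with Pdk1 and Pdk3 at their lower bounds). Without the kinases 1 of 4 was called, and the median was 0.66, against 0.26 over all genes tested. Pdhb (chr14:8165991-8172992, minus strand), the beta subunit of the component of pyruvate dehydrogenase that removes carbon dioxide, had 1790 counts in B6 against 12426 (NOD 1) and 15009 (NOD 2). The level was 131 CPM in B6, against 409 ± 46.1 for NOD (SD, n = 2), or 3.11-fold higher. The log2 fold change was 1.64 (SE 0.25, adjusted p = 0.0268 from edgeR), and 30.3% of its 50-base words also occur in 1 pseudogene. Its partner Pdha1, the X-linked alpha subunit, had 284 CPM in B6 against 281 (NOD 1) and 447 (NOD 2). B6 lay inside the range of NOD here, and the log2 fold change was 0.36 (SE 0.35, adjusted p = 0.461). Of its exon bases 21.2% overlap the antisense gene Map3k15.

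Pdk3 (chrX:93764616-93832095, minus strand), a kinase that switches pyruvate dehydrogenase off, had 0 counts in B6 against 727 (NOD 1) and 1683 (NOD 2). Against the limit of 3 counts in B6, the NOD mean of 35.7 ± 19.4 CPM (SD, n = 2) was at least 162-fold higher (adjusted p = 0.0223 from edgeR). The bound was 99.9-fold without NOD 2 and 224.6-fold without NOD 1. It shares no 50-base word with another gene. Pdk1, the kinase induced by low oxygen, also had 0 counts in B6 with 46 and 23 in NOD, at least 4.70-fold higher than the limit (6.32-fold without NOD 2 and 3.07-fold without NOD 1), and did not pass (adjusted p = 0.116). Pdk3 therefore made up 97.6% (exact 95% interval 96.8 to 98.3) and 99.5% (99.2 to 99.7) of the FPKM of this pair in NOD. Pdk2, a kinase from the wider list, named after its values were seen, had 5, 100 and 151 counts, or 1.34 and 1.97 FPKM in NOD, and did not pass (adjusted p = 0.106). Mpc2, a subunit of the mitochondrial pyruvate carrier, had 134 FPKM in B6 against 296 and 226 in NOD (log2 fold change 0.97, SE 0.29, adjusted p = 0.0806). Its partner Mpc1 had 15.3, 14.7 and 22.1 FPKM (adjusted p = 0.721), with 44.2% of its words shared with other genes.

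The other parts of the complex were read from the wider gene list, and those named here beyond the naming rule were chosen after their values were seen. Dld, the dihydrolipoamide dehydrogenase subunit, was up-regulated with 1739, 9188 and 11046 counts (log2 fold change 1.24, adjusted p = 0.0408 from edgeR), as was Pdhx, the subunit that binds it to the core, with 508, 3396 and 3250 counts (log2 fold change 1.41, adjusted p = 0.0486). Dlat, the transacetylase core, had 605, 3005 and 2845 counts and a log2 fold change of 0.98 (adjusted p = 0.0976). Pdp1, the phosphatase that switches the complex on again, had 1 count in B6 against 150 and 364 in NOD, a ratio of 104 (exact 95% interval 18.7 to 4132), or 61.8 without NOD 2 (adjusted p = 0.0398). Pdp2, the other phosphatase, was the more abundant form per length in every library and was lower in both NOD libraries without passing the test, with 31.8 FPKM in B6 against 12.4 (NOD 1) and 19.9 (NOD 2), where Pdp1 had 1.07 and 2.53 (log2 fold change of Pdp2 -0.98, SE 0.40, adjusted p = 0.138). Pdp1 and Pdp2 thus pointed in opposite directions.

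**Figure D5:**
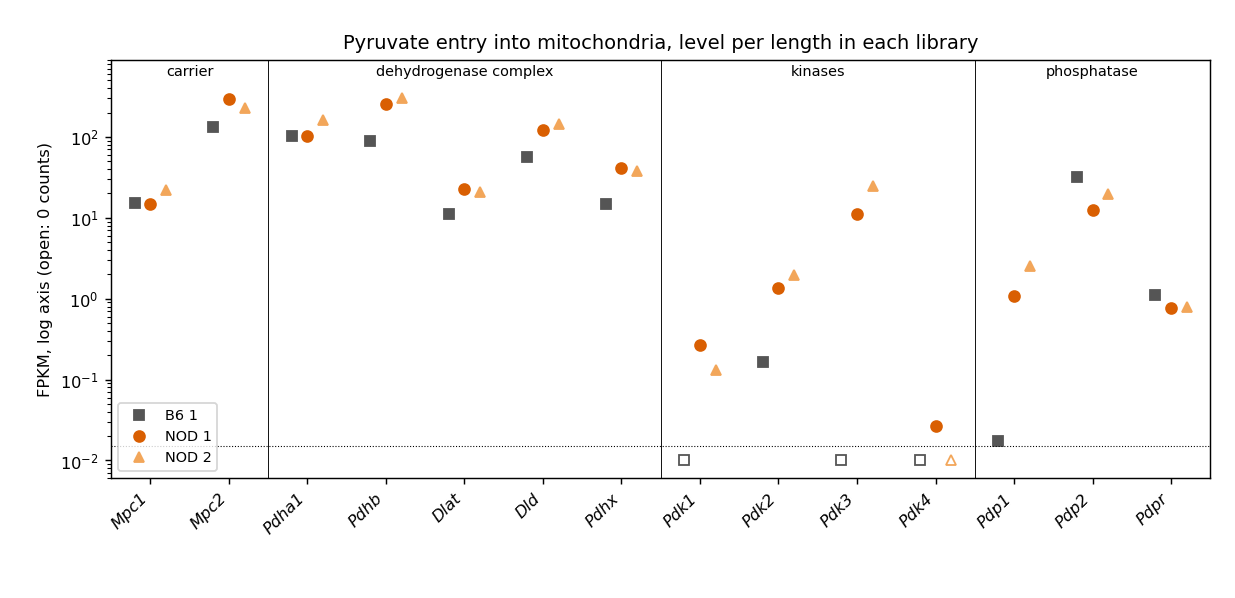
Level per length in FPKM (log axis) of the genes of the mitochondrial pyruvate carrier, the pyruvate dehydrogenase complex, its kinases and its phosphatases in each library; open symbols below the dotted line are libraries with 0 counts. Pdhb, Dlat, Dld and Pdhx lie higher in both NOD libraries than in B6, Pdha1 does not, and Pdk3 goes from 0 counts in B6 to 11.1 and 24.9 FPKM.

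Pdk3, Pdha1, Pgk1 and G6pdx are X-linked. X-linked genes as a whole had a median log2 fold change of 1.32 (504 tested, 15.1% up-regulated and 2.38% down-regulated) against 0.23 for autosomal genes. Xist, expressed from the inactive X chromosome of females, had 271 counts in B6 against 67 (NOD 1) and 4017 (NOD 2), and the Y-linked Ddx3y had 1476, 3721 and 0 counts, while Eif2s3y had 872, 3122 and 0. The libraries thus differed in these sex-linked genes, NOD 2 from the other two most of all. In CPM, NOD 1 stood at 0.445 times NOD 2 for Pdk3, 0.474 times for G6pdx, 0.628 times for Pdha1 and 0.952 times for Pgk1. Of the X-linked genes of the group only Pdk3 was called. The part of the embryos' sex in these values was not tested.

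In the pentose phosphate pathway 1 of 5 genes was down-regulated (against 7.39% of all genes tested), 0 were up-regulated and the median log2 fold change was -0.39. Rpia (chr6:70765720-70792175, minus strand), the isomerase that makes ribose phosphate for nucleotides, had 1292 counts in B6 against 639 (NOD 1) and 240 (NOD 2). In CPM these are 94.8, 19.3 and 7.05, both NOD libraries far below B6 but 2.74-fold apart. B6 lay 7.19-fold above the NOD mean (log2 fold change -2.85, SE 0.64, adjusted p = 0.0465 from edgeR), 13.4-fold above NOD 2 alone and 4.90-fold above NOD 1 alone. The size of the fall thus depended on which NOD library was read.

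Pgls, the lactonase of the oxidative branch, lay just outside the threshold and was down-regulated in 6 of the 9 alternative analyses, as were Hk2 and Gpi1, whereas Rpia was in 5. It had 1194, 1071 and 1167 counts, or 87.6 CPM in B6 against 32.4 and 34.3 in NOD, and a log2 fold change of -1.39 (SE 0.33, adjusted p = 0.0502 from edgeR). G6pdx, the X-linked enzyme that opens the pathway and makes NADPH, had 29.4, 28.0 and 59.0 CPM, with B6 inside the range of NOD (adjusted p = 0.478). Taldo1, the transaldolase, had the highest level per length of the 5 genes, at 391 FPKM in B6 against 262 (NOD 1) and 334 (NOD 2). Its log2 fold change was -0.39 (SE 0.25, adjusted p = 0.291 from edgeR). Tkt, the transketolase, had 23.6, 25.6 and 12.9 FPKM (adjusted p = 0.675), with NOD 1 above and NOD 2 below B6.

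A wider list of 84 genes of the same pathways held the other isozymes and subunits, the genes of gluconeogenesis and glycogen, and regulators and partners. Of these 67 were tested, 11 were up-regulated (16.4%, against 10.3% of all genes tested) and 3 were down-regulated (4.48%, against 7.39%), with a median log2 fold change of 0.60 (also 0.60 with genes at 0 counts in B6 set at their bounds) against 0.26 over all genes tested. The count of up-regulated genes was 6 with total counts and with upper-quartile factors, and no gene of the list was called with limma-voom or when genes with low counts were kept, which ends each call named here. By group, 6 of 30 other isozymes and subunits rose and 0 fell, 2 of 23 genes of gluconeogenesis and glycogen rose and 2 fell, and 3 of 14 regulators and partners rose and 1 fell. Fbp1, the fructose bisphosphatase that runs against phosphofructokinase, had 14 counts in B6 against 953 (NOD 1) and 1333 (NOD 2), a ratio of 33.2 (exact 95% interval 19.7 to 60.8, adjusted p = 0.0216 from edgeR). Tigar, which breaks down the fructose bisphosphate that activates phosphofructokinase and is listed in the table under an older clone name, had 165 CPM in B6 against 580 and 723 in NOD (log2 fold change 1.98, adjusted p = 0.0232). Fbp2, the muscle form, named after its values were seen, had 10505, 52212 and 52827 counts (log2 fold change 1.02, adjusted p = 0.0335).

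Prps1 and Prps2, which turn ribose phosphate into the ribose donor of nucleotide synthesis, were also up-regulated. Prps1 had 3158, 18421 and 30139 counts (log2 fold change 1.64, adjusted p = 0.0446 from edgeR). Prps2 had 9, 701 and 639 counts, a ratio of 30.2 (exact 95% interval 15.9 to 66.3, adjusted p = 0.0235), and Tktl1, a transketolase-like gene, had 101, 1788 and 1553 counts (log2 fold change 2.75, adjusted p = 0.0277). These 3 are X-linked. Bsg, the chaperone that carries Slc16a1 to the membrane, had 610 CPM in B6 and rose by a log2 fold change of 1.44 (adjusted p = 0.0231), and it too was named after its values were seen. Egln3, an oxygen-sensing hydroxylase that marks hypoxia-inducible factors, had 0, 95 and 327 counts, at least 28.4-fold higher in NOD (at least 43.6-fold without NOD 1 and 13.1-fold without NOD 2, adjusted p = 0.0427).

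Pgm2 and Mlxipl were among the down-regulated genes of the wider list. Pgm2, a phosphoglucomutase, had 724 counts in B6 against 161 and 110 in NOD (log2 fold change -3.71, adjusted p = 0.0228 from edgeR). Mlxipl (ChREBP), a glucose-responsive transcription factor, had 261, 34 and 75 counts. It was 11.9-fold higher in B6 than in NOD, 18.6-fold without NOD 2 and 8.69-fold without NOD 1 (adjusted p = 0.0393 from edgeR). Hif1a and Epas1, the regulated subunits of hypoxia-inducible factors, did not pass, with log2 fold changes of 0.62 (adjusted p = 0.207) and -0.92 (adjusted p = 0.0524), and were likewise named after their values were seen.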

How the data were processed

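Low-input RNA-Seq was analysed from 3 mouse blastocyst libraries, 1 of B6 and 2 of NOD, grouped by the strain in the labels. The authors amplified SMART-Seq V4 libraries by PCR (19 cycles), read them from a single end over 50 bases, used STAR for alignment to mm10 (2.2.0c per the submitters' processing notes) and counted reads with HOMER on exons, on both strands together, with 1 transcript per gene. The deposited values are these raw counts without normalization. No molecular identifiers were used, so intervals and limits cover counting error only, and p-values measure the spread between these NOD libraries, which the labels do not tie to separate litters.

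Counts were scaled by TMM factors (1.090, 0.975 and 0.941) and tested with edgeR 4.0.16 in R 4.3.3 (filterByExpr with a minimum count of 10, trended dispersion, quasi-likelihood test with legacy set to false, Benjamini-Hochberg adjustment over 14456 genes). The fit has 1 residual degree of freedom and 3.78 prior degrees of freedom, and the spread of B6 is taken to equal that of NOD. Standard errors were obtained from the fitted log2 fold changes and the square root of F. DESeq2 1.42.0 and limma 3.58.1 served for alternatives. Intervals are exact Clopper-Pearson intervals (scipy 1.17.1), of the split of counts for ratios. Shared 50-base words were counted in the transcripts of GENCODE M21 and promoters taken from RefSeq.

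The 36 genes and all lists were chosen with earlier results of these data known. Named are the genes that passed, the highest gene per length of each role, isozymes whose share is described and, of the wider list, at most the 10 called genes with the largest change. The list of sex-linked genes and the fit with edgeR's own dispersion were added after the data were seen. Other settings tried were other size factors, filters and tests, and each NOD library alone, which leaves no test. FPKM is CPM on the TMM scale per kilobase of the listed length. Of the wider list, 1 down-regulated gene is not reported here by name.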

Additional observations from a re-analysis of the deposited data

How the results depend on the processing

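With total counts only, the call of Rpia was lost and the median log2 fold change of the 34 tested genes was -0.14. The values of Gapdh and Ldha changed sign to -0.072 and -0.034, and 6 genes of the wider list were up-regulated. Of all genes 1037 were up- and 1132 down-regulated. Calls up made up 47.8% of all calls against 58.1%, with the median of all genes at 0.07. With upper-quartile factors, 1016 of all genes were up- and 701 down-regulated. Of the 36 genes 2 (Pfkl and Pkm) were down-regulated, and of the wider list 1 was down- and 6 up-regulated. The filter and the test moved the counts most. With genes of low counts kept, edgeR called 0 genes in either direction in all genes, the 36 genes and the wider list (5568 genes and 17 of the 36 at an unadjusted p under 0.05), and the value of Pfkfb2 became 0.0048. Limma-voom also called 0 in each of these (3924 and 13 at an unadjusted p under 0.05). With at least 1 CPM in 2 libraries, 2442 genes were up- and 1778 down-regulated, of the 36 genes 4 (with Pfkm and Pgam1) and 8 (with Aldoc, Eno3 and Pgls), and of the wider list 17 and 6. DESeq2 called 2346 up and 1864 down, 4 of the 36 up (with Pfkm and Pgam1) and 7 down (with Aldoc and Pgls), and 6 of the wider list down. Pgls was also called down with DESeq2 size factors, total counts, robust estimation and edgeR's own dispersion. With edgeR's own dispersion 1281 of all genes were up- and 1418 down-regulated (47.5% of calls up), and Aldoc was also called down. The cause of these shifts was not tested. Over 9 alternatives the adjusted p ranged up to 0.0906 for Hk2, 0.0933 for Gpi1, 0.0714 for Pfkl, 0.0744 for Pkm, 0.0983 for Rpia, 0.0705 for Pdhb and 0.429 for Pdk3. None of these 7 genes changed direction.

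Without length correction the isozyme differences (NOD minus B6, percentage points) were -13.4 for Slc2a1, 1.31 for Slc16a1 and 14.0 for Pfkp. With the mean transcript length of GENCODE M21 they were -13.9 for Slc2a1, 3.02 for Slc16a1, -14.0 for Hk2, 13.2 for Pfkp and 0.719 for Aldoa, all in the direction reported. Leaving out either NOD library left the median of the 34 tested genes between -0.04 and 0.17 and gave no test. No paired analysis was possible because the labels tie no B6 library to a NOD library. The B6 library, the shallowest, limits what can be seen of genes near 0 counts.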
